A study of Mus musculus with 31 samples.

Results

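The 78 nuclear-encoded genes of oxidative phosphorylation were followed through 31 RNA-seq libraries of mouse macrophages. They were taken as the protein-coding genes whose symbols mark them as subunits of complexes I to IV or of ATP synthase, with 10 or more counts in at least 3 libraries of each of 2 experiments. Of 85 gene identifiers whose symbols qualified, 78 met the count threshold, among 35275 identifiers in the table of experiment 1 and 54532 in that of experiment 2. Complex I contributed 36 genes, complex II 4, complex III 8, complex IV 13 and ATP synthase 17.

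The cells were macrophages grown from bone marrow of male C57BL/6J mice, 6 to 12 weeks old, in medium conditioned by L-929 cells, which supplies the growth factor M-CSF. The labels name no genotype other than this strain for any of the 31 libraries. Cells received drugs overnight and, in all groups but vehicle, 100 ng/ml of the bacterial endotoxin LPS for the last 3 h. Dex is dexamethasone, a synthetic glucocorticoid (1 µM), iBRD9 an inhibitor of the chromatin reader BRD9 (a dose of 3 or 10 µM, which of these is not stated) and dBRD9 a degrader of BRD9 (250 nM). Experiment 1 had 3 libraries per group: Dex combined with iBRD9 or with dBRD9 on LPS (Dex+iBRD9+LPS, Dex+dBRD9+LPS), either BRD9 compound alone on LPS (iBRD9+LPS, dBRD9+LPS), Dex alone on LPS (Dex+LPS), LPS alone, and vehicle. Experiment 2 had 2 libraries per group, with Dex and dBRD9 together (Dex+dBRD9+IFNγ+LPS) or alone (Dex+IFNγ+LPS and dBRD9+IFNγ+LPS) on interferon-γ plus LPS, IFNγ+LPS itself, and vehicle, and no label used here states the dose or timing of interferon-γ. The labels do not say whether libraries of a group came from separate animals or cultures, so p-values measure only the spread between these samples.

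Oxidative phosphorylation makes ATP in the inner mitochondrial membrane. Complexes I and II feed electrons from NADH and succinate to ubiquinone, complex III passes them to cytochrome c and complex IV to oxygen, and ATP synthase uses the proton gradient that complexes I, III and IV build. A few core subunits are encoded by mitochondrial DNA and all others, including the whole of complex II, by nuclear genes. Macrophages given endotoxin are known to shift toward glycolysis and to use complexes I and II in ways other than for making ATP, and glucocorticoids are known to dampen their inflammatory genes.

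Promoters were read first for letters shared by the genes. RefSeq promoter windows (GRCm38.p6, 250 bases before and 50 after the start) matched 63 of the 78 genes by symbol. Motifs were searched on both strands. The half-sites GCGC and TGCGC with 1 base between them, of the type bound by NRF1, were found in 16 of the 63 windows (25.4%), against 4.78% of all 27025 windows. The letters CCGGAAG, of the type bound by ETS factors, were found in 15 (23.8%), against 9.12%, and AAGATGGCG, of the type bound by YY1, in 6 (9.52%), against 1.49%. The letters CCAAT were found in 27 (42.9%), against 37.9%. The half-sites GNACA and TGTNC with 3 bases between them, of the type bound by the glucocorticoid receptor, were in 0 windows of the 63, against 0.463% of all windows. None of these motifs contains another. Among the 12 genes lower with Dex in all 3 pairs of experiment 1, those with a window were 11, of which 1 held the NRF1-type motif, 2 the ETS type, 2 the YY1 type, 6 CCAAT and 0 the glucocorticoid receptor type.

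The 4 promoters below belong to genes that the results turn on. Ndufs8 and Ndufa12 had the largest decreases with Dex among complex I genes in experiment 1, Ndufv2 was higher with Dex in both experiments, and Atp5b was the most abundant member per length in vehicle cells of experiment 1. They lie at chr19:3912725-3913024 (minus strand) for Ndufs8, chr10:94198785-94199084 (plus strand) for Ndufa12, chr17:66101510-66101809 (minus strand) for Ndufv2 and chr10:128083057-128083356 (plus strand) for Atp5b. In GENCODE M21 (mm10), Ndufs8 (ENSMUSG00000059734) runs over chr19:3908863-3912774, Ndufa12 (ENSMUSG00000020022) over chr10:94198720-94221443, Ndufv2 (ENSMUSG00000024099) over chr17:66078638-66101559 and Atp5b (ENSMUSG00000025393) over chr10:128083273-128090391. The windows of Ndufs8, Ndufv2 and Atp5b span that annotated start, and the window of Ndufa12 lies inside the annotated gene. Capitals mark matches to the motifs above on either strand.
Ndufs8: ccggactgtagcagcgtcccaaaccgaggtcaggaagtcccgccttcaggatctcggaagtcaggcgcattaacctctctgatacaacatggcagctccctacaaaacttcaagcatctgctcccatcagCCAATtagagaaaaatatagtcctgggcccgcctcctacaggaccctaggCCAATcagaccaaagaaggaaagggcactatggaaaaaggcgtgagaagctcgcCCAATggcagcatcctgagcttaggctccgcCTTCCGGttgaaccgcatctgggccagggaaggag
Ndufa12: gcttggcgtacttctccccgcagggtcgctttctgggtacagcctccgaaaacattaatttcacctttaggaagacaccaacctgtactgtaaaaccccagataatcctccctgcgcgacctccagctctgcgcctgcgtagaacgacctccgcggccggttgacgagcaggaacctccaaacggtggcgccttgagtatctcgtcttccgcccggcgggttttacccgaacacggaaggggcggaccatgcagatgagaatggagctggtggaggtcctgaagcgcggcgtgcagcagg
Ndufv2: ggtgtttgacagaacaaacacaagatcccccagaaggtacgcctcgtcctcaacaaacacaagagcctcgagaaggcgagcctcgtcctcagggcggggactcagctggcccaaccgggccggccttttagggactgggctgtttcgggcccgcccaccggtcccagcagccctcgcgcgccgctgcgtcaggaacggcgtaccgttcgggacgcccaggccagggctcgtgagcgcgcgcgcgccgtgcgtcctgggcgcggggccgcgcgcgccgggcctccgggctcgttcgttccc
Atp5b: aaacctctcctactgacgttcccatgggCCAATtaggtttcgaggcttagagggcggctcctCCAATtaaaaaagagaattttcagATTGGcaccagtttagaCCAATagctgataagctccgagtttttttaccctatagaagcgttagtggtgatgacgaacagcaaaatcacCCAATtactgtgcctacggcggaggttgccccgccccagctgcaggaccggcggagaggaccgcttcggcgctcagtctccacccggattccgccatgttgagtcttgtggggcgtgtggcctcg
The Ndufs8 window held 1 ETS-type match and 3 CCAAT matches, and that of Atp5b 5 CCAAT matches. Neither Ndufa12 nor Ndufv2 had a match in its window.

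Among the 78 genes, levels per length spanned a wide range. In vehicle cells of experiment 1, the highest CPM per kb (counts per M counts of the library, scaled by TMM factors, per kilobase of coding transcript) were those of Atp5b, the catalytic β subunit of ATP synthase, at 274 ± 1.38 (SD, n = 3), and of the complex IV subunits Cox6a1 at 258 ± 5.72 and Cox8a at 249 ± 3.55. Complex IV and ATP synthase had medians of 123 and 114 CPM per kb, complex III 80.6, complex II 66.3 and complex I 38.1. In vehicle cells of experiment 2 the order of the medians was the same for complex IV at 124, ATP synthase at 111, complex III at 93.8, complex II at 59.0 and complex I at 46.4.

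The lowest levels per length in vehicle cells of experiment 1 were those of Cox6a2, the isoform of heart and skeletal muscle, at 0.472 ± 0.275 CPM per kb, and of the complex I accessory gene Ndufb2 at 0.576 ± 0.107. Atp5s had 10 or more counts in 21 and 9 libraries of the 2 experiments, and Cox7a1, another heart and muscle isoform, in 20 and 10. Just inside the count threshold lay Cox6a2, with that many in 4 and 5 libraries. Just outside lay the testis isoform Cox6b2, with that many in 4 libraries of experiment 1 and 0 of experiment 2, and the lung isoform Cox4i2, with 59 and 36 counts in all. Ndufa4l2 had 0 and 21 counts in all, Cox8b 8 and 1, and Cox7b2, Cox8c and the second identifier of Atp5o had none. Reads of Ndufb9, Atp5o and Ndufb8 may be split with another gene, since 28.6%, 29.0% and 5.8% of their exon bases overlap one on the same strand. Genes on the opposite strand cover 41.7% of the exon bases of Cox5a, 39.0% of Ndufb6, 30.0% of Ndufa13, 26.6% of Uqcrc2, 24.4% of Atp5l, 21.0% of Atp5f1 and 20.1% of Cox4i1, and with no strand setting stated their reads cannot be told apart.

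Total counts per library ran over 19.3 to 29.9 M (experiment 1) and 14.5 to 17.9 M (experiment 2), and the 78 genes took 0.503% to 0.707% and 0.436% to 0.924% of them. All 78 passed the filter on low counts and were tested. Macrophage markers (8 of 8 at 1 CPM or more) summed to 12700 to 27300 CPM in experiment 1 and 12600 to 14500 in experiment 2, while none of the 5 T and NK cell or 4 erythroid markers reached 1 CPM. In experiment 1, 2 of 6 neutrophil markers reached it, and the list summed to 0.641 to 1.8 CPM in iBRD9+LPS libraries, against 10.3 to 14.7 in LPS libraries and 6.04 to 7.56 in vehicle libraries. Dendritic cell markers (3 of 5) summed to 1.22 to 1.53 CPM in iBRD9+LPS libraries, against 6.86 to 7.8 in LPS libraries and 0.747 to 1.13 in vehicle libraries. The stromal list reached 29.8 to 32.9 CPM in LPS libraries, against 0.378 to 0.546 CPM in vehicle libraries of experiment 1, through Pdgfrb, with Col1a1, Col1a2 and Dcn all under 1 CPM, and was at 0.855 to 1.93 CPM in iBRD9+LPS libraries. In experiment 2, 3 of the 4 stromal markers (all but Dcn) reached 1 CPM, and the list summed to 54.5 to 60.5 CPM in IFNγ+LPS libraries, against 42.3 to 45.1 in vehicle libraries, with 27.9 to 32.4 CPM in Dex+dBRD9+IFNγ+LPS libraries, against 40.8 to 42.0 in dBRD9+IFNγ+LPS libraries. Neutrophil markers (2 of 6) were at 7.75 to 10.7 CPM in Dex+IFNγ+LPS libraries, against 21.5 to 22.2 in IFNγ+LPS libraries, and dendritic cell markers (2 of 5) at 6.35 to 7.1 CPM in IFNγ+LPS libraries, against 0.856 to 1.03 in vehicle libraries. The part of these lists in the results below was not tested. The macrophage list itself was at 26900 to 27300 CPM in Dex+LPS libraries, against 16100 to 16800 in LPS libraries. In bulk RNA, fewer cells of a type and less RNA per cell cannot be told apart.

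Transcript length bears on those comparisons whose fold changes run with it. Across all genes that correlation was -0.0378 for LPS over vehicle and 0.00741 for dBRD9+LPS over LPS. It was 0.306 for Dex+iBRD9+LPS over Dex+LPS and -0.484 for Dex+dBRD9+IFNγ+LPS over Dex+IFNγ+LPS. The 78 genes are short. Their coding transcripts had a median of 743.5 nt, against 2571 nt over all genes tested in experiment 1, and 52 (66.7%) were under 1000 nt, against 11.3% of all genes tested. In library 1 of Dex+LPS, the deviation of a gene from its group's mean fell with transcript length, with a Spearman correlation of -0.738 across 7593 genes, against 0.651 and 0.679 in libraries 2 and 3 of that group. In library 1 of Dex+dBRD9+LPS it was -0.549, against 0.334 and 0.453 in its other libraries. Genes within a library share its preparation, so these correlations are descriptions. Deviations from a group's mean sum to 0 over its libraries, so the values of libraries in the same group depend on each other. In the other libraries of experiment 1 the correlation lay within 0.246 of 0, apart from dBRD9+LPS with -0.396, 0.458 and -0.0407.

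The 78 genes were placed as follows. The share of all genes, or of genes of like length, that lay above is not given here. The placement counts are therefore not read as results about the 78 genes. In library 1 of Dex+LPS, 76 of 78 were above the mean of the other libraries of the group, with a median difference of 0.42 on the log2 scale. Genes under 600 nt were higher by a median of 0.5 (27 of 27), those of 600 to 1000 nt by 0.46 (25 of 25), and those of 1000 nt or more by 0.3 (24 of 26). In library 1 of Dex+dBRD9+LPS, 62 of 78 were above, with a median of 0.11, and the medians of the 3 length classes were 0.11, 0.13 and 0.06. The summed level of the 78 genes shows the same split. It was 6773, 5326 and 5366 CPM in the Dex+LPS libraries and 5818, 5527 and 5427 CPM in the Dex+dBRD9+LPS libraries, against 6177, 6352 and 6275 CPM in LPS libraries and 6379, 6030 and 6448 CPM in dBRD9+LPS libraries. Library 1 of Dex+LPS thus lay above every LPS library and the other Dex+LPS libraries below all of them. Results on these groups are therefore given with all libraries and without the pair that stands apart, library 1 of Dex+LPS and library 1 of Dex+dBRD9+LPS.

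**Figure D1:**
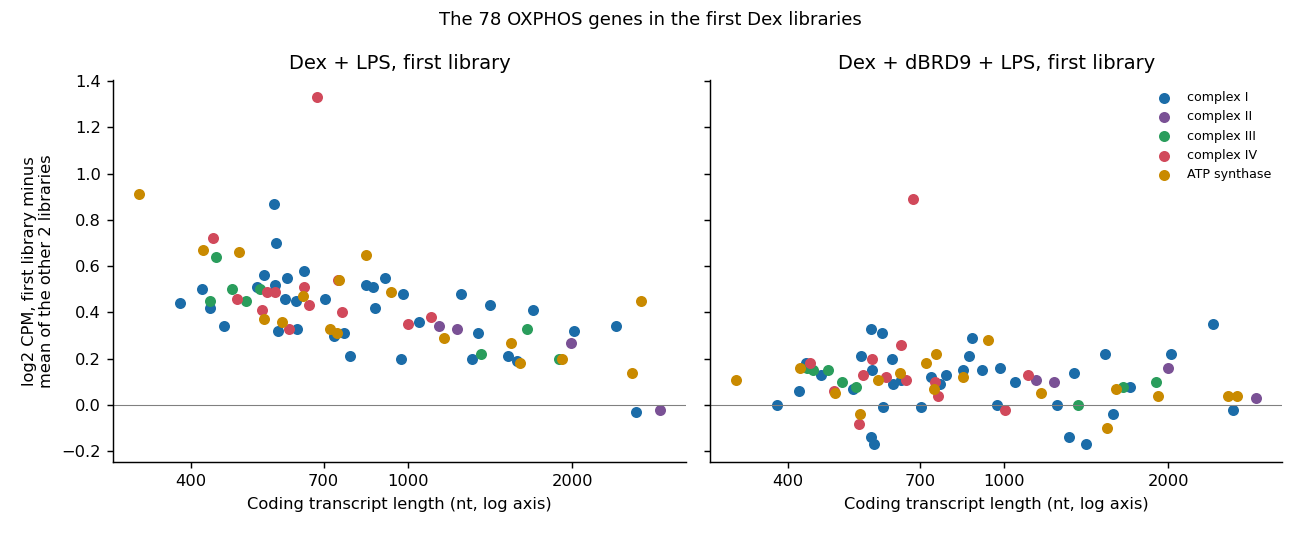
Each point is 1 of the 78 genes. The x axis is coding transcript length in nt (log axis) and the y axis is log2 CPM in library 1 minus the mean of libraries 2 and 3, for Dex+LPS and for Dex+dBRD9+LPS, coloured by complex. In Dex+LPS 76 of 78 genes lie above 0, with a median of 0.5 for those under 600 nt and 0.3 for those of 1000 nt or more, while in Dex+dBRD9+LPS 62 lie above 0 with a median of 0.11. The share of all genes above 0 is not given.

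Experiment 2 showed the pattern in other groups. Vehicle library 1 had a correlation of -0.695 and library 2 of 0.695, with 77 of 78 genes higher in library 1, and the 78 genes summed to 6731 and 4959 CPM. The count of 77 stands without the share of all genes and is not read as a result about the 78 genes. In Dex+IFNγ+LPS the correlations were 0.663 in library 1 and -0.663 in library 2, with sums of 4771 and 5648 CPM. With 2 libraries per group the deviations mirror each other, so the value of either library follows from the other. Library 2 of IFNγ+LPS was at 0.359, library 2 of dBRD9+IFNγ+LPS at 0.0896 and library 1 of Dex+dBRD9+IFNγ+LPS at 0.0744. The sums were closer in IFNγ+LPS (5279 and 5106 CPM), dBRD9+IFNγ+LPS (4942 and 5053) and Dex+dBRD9+IFNγ+LPS (6057 and 6064).

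**Figure D2:**
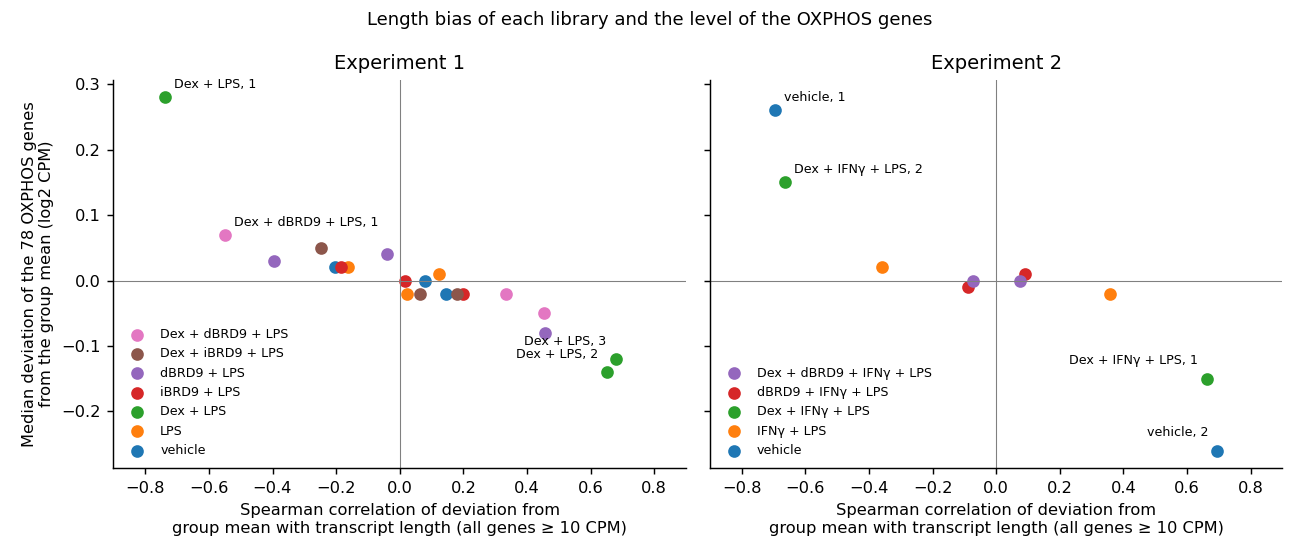
Each point is a library, coloured by group, with experiment 1 and experiment 2 in separate panels. The x axis is the Spearman correlation, across genes, of a gene's deviation from its group's mean (log2) with coding transcript length, and the y axis is the median of that deviation over the 78 genes. Library 1 of Dex+LPS lies at -0.738 and 0.28, and vehicle library 1 of experiment 2 at -0.695 and 0.26.

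With LPS, 25 of the 78 genes rose and 5 fell, all by modest amounts apart from Atp5s. In complex I 6 genes rose and 3 fell, and in complex II Sdhb fell. LPS cells were compared with vehicle cells, the question being what endotoxin did to the chain within 3 h. These counts (edgeR's quasi-likelihood test, adjusted p under 0.05 over 12662 genes) stand against 36.1% of all genes tested higher and 39.3% lower, so the share of the 78 genes that rose was near that of all genes and the share that fell was below it. Their median log2 fold change was 0.14, against -0.05 over all genes. By complex, 6 of 8 genes rose in complex III, 6 of 13 in complex IV and 7 of 17 in ATP synthase, with 6 of 36 in complex I and 0 of 4 in complex II. The medians were 0.24 for complexes III and IV, 0.16 for ATP synthase, 0.08 for complex I and 0.02 for complex II. The direction rests on the scaling: with library totals alone 0 genes were higher and 71 lower, against 19.1% and 64.2% of all genes, the medians of the complexes lay between -0.27 and -0.49, and the median of all genes moved to -0.56. The median of the 78 genes stood 0.19 above that of all genes under either scaling. Correcting for length gave 45 higher and 7 lower, against 40.5% and 36.2% of all genes, and leaving out the 2 Dex libraries that stand apart, which are in neither group but share the estimate of the spread, gave 43 higher and 6 lower, against 38.2% and 40.9%.

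Of the ATP synthase catalytic head, Atp5b had 730, 755 and 742 CPM in LPS libraries, against 528, 526 and 523 CPM in vehicle libraries. The groups lie far apart, with a log2 fold change of 0.50 ± 0.051 (SE, n = 3 each) and an adjusted p of 6.6e-09. Its partner Atp5a1, the α subunit, had 577, 592 and 590 CPM in LPS libraries, against 459, 462 and 461 CPM in vehicle libraries (log2 fold change 0.35, adjusted p = 1.1e-07). Again the groups did not overlap. With library totals alone both values fell below 0, to -0.01 for Atp5b and -0.16 for Atp5a1. Atp5g1, which encodes the c subunit of the membrane ring, rose by 0.25 (adjusted p = 0.01).

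In complex IV, Cox7a2 had 73.1, 75.5 and 70.9 CPM in LPS libraries, against 49.5, 53.1 and 54.7 CPM in vehicle libraries, a log2 fold change of 0.48 ± 0.089 (adjusted p = 4.1e-05). Cox6c had 96.4, 99.7 and 94.5 CPM in LPS libraries, against 75.0, 71.2 and 76.8 CPM in vehicle libraries (0.38, adjusted p = 2.4e-05). Both are small nuclear subunits that surround the catalytic core, and neither showed overlap. The nuclear subunits Cox4i1 and Cox8a rose by 0.22 and 0.24 (adjusted p = 0.012 and 0.015), and both calls were lost without LPS library 3 (adjusted p = 0.052 and 0.06). Ndufa4, counted here with complex I for its name but found as a subunit of complex IV, rose by 0.23 (adjusted p = 0.0063).

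In complex III, Uqcrfs1, the Rieske iron-sulphur protein, had 101, 102 and 99.4 CPM in LPS libraries, against 75.8, 79.8 and 79.6 CPM in vehicle libraries (0.37 ± 0.052, adjusted p = 1.2e-06). Uqcrh, the hinge protein near cytochrome c, had 86.0, 89.3 and 82.2 CPM in LPS libraries, against 65.0, 66.0 and 68.0 CPM in vehicle libraries (0.37 ± 0.092, adjusted p = 0.00087). Both genes were above vehicle in every LPS library. Uqcrc1, a core protein, rose by 0.18 (adjusted p = 0.018), a call lost without vehicle library 2 or 3 (adjusted p = 0.056 and 0.057).

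The 5 genes that fell with LPS were Sdhb of complex II, Ndufv3, Ndufb8 and Ndufa6 of complex I, and Atp5s. Sdhb, the iron-sulphur subunit that carries electrons within succinate dehydrogenase, had 87.3, 91.2 and 90.3 CPM in LPS libraries, against 108, 107 and 111 CPM in vehicle libraries (-0.28 ± 0.07, adjusted p = 0.0011). The other catalytic subunit, the flavoprotein Sdha, had a log2 fold change of 0.03 and was not called. The complex I accessory gene Ndufv3 had 22.9, 22.3 and 23.1 CPM in LPS libraries, against 30.8, 30.9 and 31.2 CPM in vehicle libraries (-0.44 ± 0.11, adjusted p = 0.0013). Sdhb and Ndufv3 did not overlap between groups. The accessory genes Ndufb8 and Ndufa6 had log2 fold changes of -0.31 and -0.22 (adjusted p = 0.021 and 0.029). Ndufb8 lost its call without vehicle library 1 or LPS library 1 (adjusted p = 0.11 each), and Ndufa6 without any of vehicle 1, vehicle 3, LPS 1 or LPS 2 (adjusted p 0.054 to 0.098). Atp5s, also called factor B, had only 1.45, 0.829 and 1.35 CPM in LPS libraries, against 3.06, 2.59 and 2.5 CPM in vehicle libraries (-1.19 ± 0.19, adjusted p = 6.3e-06). Ndufs1, the largest iron-sulphur subunit of complex I, rose by 0.15 (adjusted p = 0.015, and 0.079 without vehicle library 2), and Ndufv1, which binds NADH, had a log2 fold change of 0.02.

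In cells given LPS, 18 to 29 of the 78 genes were lower with Dex and 2 to 5 higher, in 3 pairs of groups that share no library. The share that was lower was under that of all genes in Dex+LPS over LPS and above it in the other pairs, and with library totals alone the first pair had 11 higher and 10 lower. The decreases spanned all complexes and were small, with Ndufs8 and Ndufa12 the lowest of complex I, and Ndufv2 was the gene that rose throughout. Against LPS, Dex+LPS had 5 genes higher and 18 lower, against 27.9% and 27.5% of all genes, with a median log2 fold change of -0.07 (all genes 0.01). Against iBRD9+LPS, Dex+iBRD9+LPS had 2 higher and 25 lower, against 25.7% and 24.1%, with a median of -0.16 (all genes 0.02). Against dBRD9+LPS, Dex+dBRD9+LPS had 2 higher and 29 lower, against 29.1% and 26.7%, with a median of -0.16 (all genes 0.03). The first of these counts moved with 1 library: without Dex+LPS library 1 alone, 2 genes were higher and 50 lower, with a median of -0.22 (all genes 0.01). For counts with 1 library left out, here and below, the share of all genes called is not given. Without both libraries that stand apart, the counts were 2 higher and 51 lower (all genes 29.6% and 29.7%, median -0.22), 2 and 45 (29.6% and 27.7%, median -0.16), and 5 and 47 (30.7% and 28.5%, median -0.18). The second count fell to 2 higher and 14 lower without Dex+iBRD9+LPS library 3.

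Scaling changed the split of 2 of these counts. With library totals alone 11 genes were higher and 10 lower in Dex+LPS (all genes 34.5% and 23.3%), and 10 higher and 15 lower in Dex+dBRD9+LPS (all genes 36.5% and 21.9%). That scaling moved the median of all genes to 0.09 and 0.12. The medians of the 78 genes stood 0.08 and 0.19 below those of all genes under either scaling. Length correction left 9 higher and 26 lower, 3 and 34, and 7 and 29 in the 3 pairs, against 30.0% and 28.7%, 26.6% and 26.1%, and 29.0% and 29.2% of all genes.

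**Figure D3:**
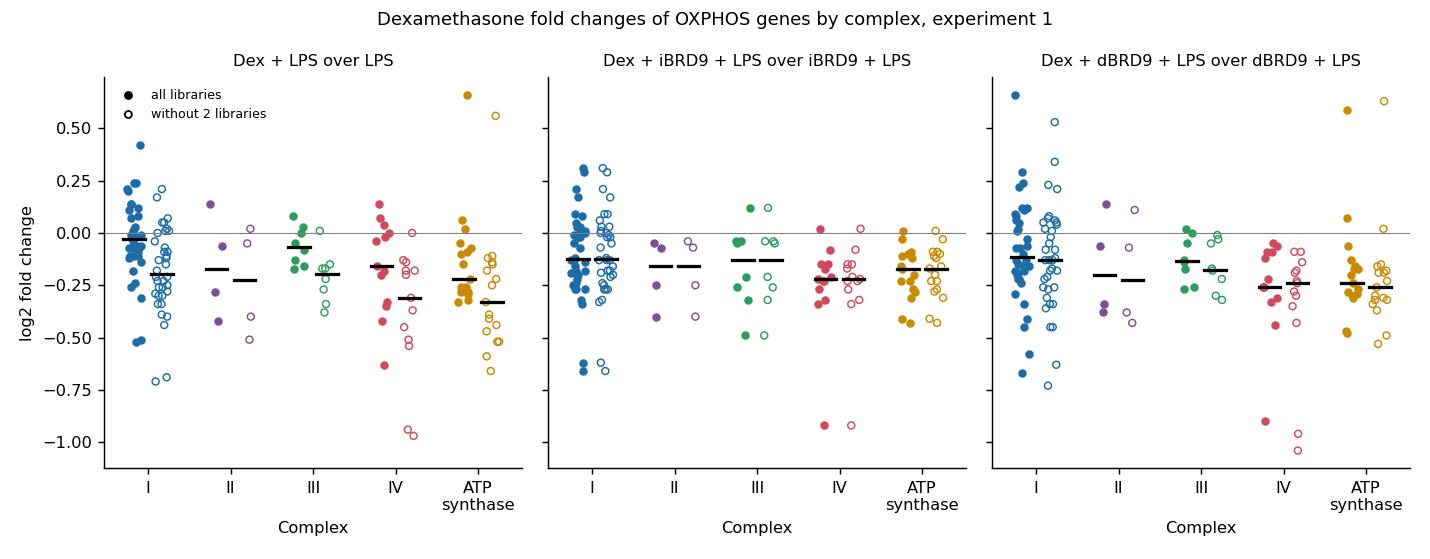
Each point is 1 of the 78 genes and the y axis is the log2 fold change of Dex in 3 pairs of groups of experiment 1 (Dex+LPS over LPS, Dex+iBRD9+LPS over iBRD9+LPS, Dex+dBRD9+LPS over dBRD9+LPS), by complex. Filled points use all libraries, open points leave out library 1 of Dex+LPS and of Dex+dBRD9+LPS, and bars are medians. In the first pair the median of ATP synthase is -0.22 with all libraries and -0.33 without the 2 libraries.

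By complex, the lowest median was that of ATP synthase in Dex+LPS over LPS and that of complex IV in the other pairs. In Dex+LPS over LPS, 7 of 17 ATP synthase genes fell (median -0.22), 3 of 13 of complex IV (-0.16), 2 of 4 of complex II (-0.17), 1 of 8 of complex III (-0.07) and 5 of 36 of complex I (-0.03). Without both libraries these counts became 16, 9, 2, 5 and 19, with medians of -0.33, -0.31, -0.23, -0.2 and -0.19. With library totals alone the medians of complexes I and III changed sign, to 0.05 and 0.02, and those of ATP synthase and complex IV were -0.13 and -0.07. In Dex+dBRD9+LPS over dBRD9+LPS, 12 ATP synthase genes and 7 complex IV genes fell (medians -0.24 and -0.26), and 7 of complex I (-0.12). Without both libraries these were 15, 10 and 15. In Dex+iBRD9+LPS over iBRD9+LPS, 5 and 7 fell (-0.17 and -0.22), and 8 of complex I (-0.12), which became 14, 10 and 15 without both libraries.

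Across the 3 pairs, 12 genes were lower in each: Atp5g1, Atp5g2, Atp5j2, Cox7a2, Cox7b, Ndufa4, Ndufa12, Ndufa13, Ndufc1, Ndufs8, Sdhb and Sdhc. Without both libraries 37 were. Ndufs8, an iron-sulphur subunit on the path to ubiquinone, had 26.9, 18.2 and 20.3 CPM in Dex+LPS libraries, against 29.4, 32.0 and 32.7 CPM in LPS libraries. It had 21.4, 21.1 and 19.5 CPM in Dex+iBRD9+LPS libraries, against 32.4, 30.7 and 32.3 CPM in iBRD9+LPS libraries, and 24.9, 23.3 and 21.4 CPM in Dex+dBRD9+LPS libraries, against 37.3, 33.3 and 40.6 CPM in dBRD9+LPS libraries. Every Dex library lay below every library without Dex in its pair. The log2 fold changes were -0.52 ± 0.1, -0.62 ± 0.1 and -0.67 ± 0.1 (adjusted p = 0.0002, 2.9e-05 and 6.1e-06), and the values for Dex+LPS and Dex+dBRD9+LPS were -0.69 and -0.73 without both libraries.

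Ndufa12, an accessory subunit at the same arm of complex I, had 23.5, 16.8 and 15.9 CPM in Dex+LPS libraries, against 27.6, 27.6 and 25.0 CPM in LPS libraries. In the other pairs it had 21.0, 19.5 and 20.3 CPM in Dex+iBRD9+LPS libraries, against 32.4, 30.1 and 33.6 CPM in iBRD9+LPS libraries, and 18.4, 17.5 and 15.6 CPM in Dex+dBRD9+LPS libraries, against 27.4, 21.8 and 28.0 CPM in dBRD9+LPS libraries. Again no pair overlapped, and the highest Dex+LPS value is that of library 1. The log2 fold changes were -0.51, -0.66 and -0.58 (adjusted p = 0.00061, 3.3e-05 and 0.00016), and the values for Dex+LPS and Dex+dBRD9+LPS were -0.71 and -0.63 without both libraries.

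Complex II was lower with Dex through Sdhb and the membrane anchor Sdhc. Sdhc had 114, 94.6 and 94.9 CPM in Dex+LPS libraries, against 137, 133 and 137 CPM in LPS libraries (-0.42 ± 0.06, adjusted p = 3.2e-06). Sdhb had 85.7, 67.8 and 67.4 CPM in Dex+LPS libraries, against 87.3, 91.2 and 90.3 CPM in LPS libraries (-0.28, adjusted p = 0.0018). Neither overlapped, although library 1 brought Sdhb close to the LPS values. Sdhc was lower by -0.4 and -0.38 and Sdhb by -0.25 and -0.34 in the pairs with iBRD9 and dBRD9. Without both libraries Sdhc was at -0.51 and Sdhb at -0.4 in the first pair, and at -0.43 and -0.38 in the pair with dBRD9.

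In ATP synthase, Atp5b had 677, 585 and 590 CPM in Dex+LPS libraries, against 730, 755 and 742 CPM in LPS libraries (-0.27 ± 0.051, adjusted p = 0.00011). In the pair with dBRD9 it had 611, 597 and 593 CPM in Dex+dBRD9+LPS libraries, against 740, 728 and 762 CPM in dBRD9+LPS libraries (-0.31, adjusted p = 1.9e-05). Without both libraries these values were -0.33 and -0.32. The Dex values lay between those of LPS and vehicle cells. Atp5g1 had 69.3, 49.2 and 52.7 CPM in Dex+LPS libraries, against 69.5, 69.9 and 68.2 CPM in LPS libraries, so that library 1 lay among the LPS values. Its log2 fold change was -0.28 (adjusted p = 0.008, and -0.44 without both libraries), with adjusted p of 0.069 and 0.05 without Dex+LPS library 2 or 3. It was lower by -0.48 in the pair with dBRD9 (adjusted p = 4.5e-05, and -0.49 without both libraries) and by -0.23 in the pair with iBRD9 (adjusted p = 0.03), where leaving out iBRD9+LPS 1 or 2 or Dex+iBRD9+LPS 2 or 3 gave adjusted p of 0.069 to 0.1. Atp5e, the ε subunit, was lower by -0.47 in the pair with dBRD9 (adjusted p = 0.0013, and -0.53 without both libraries).

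**Figure D4:**
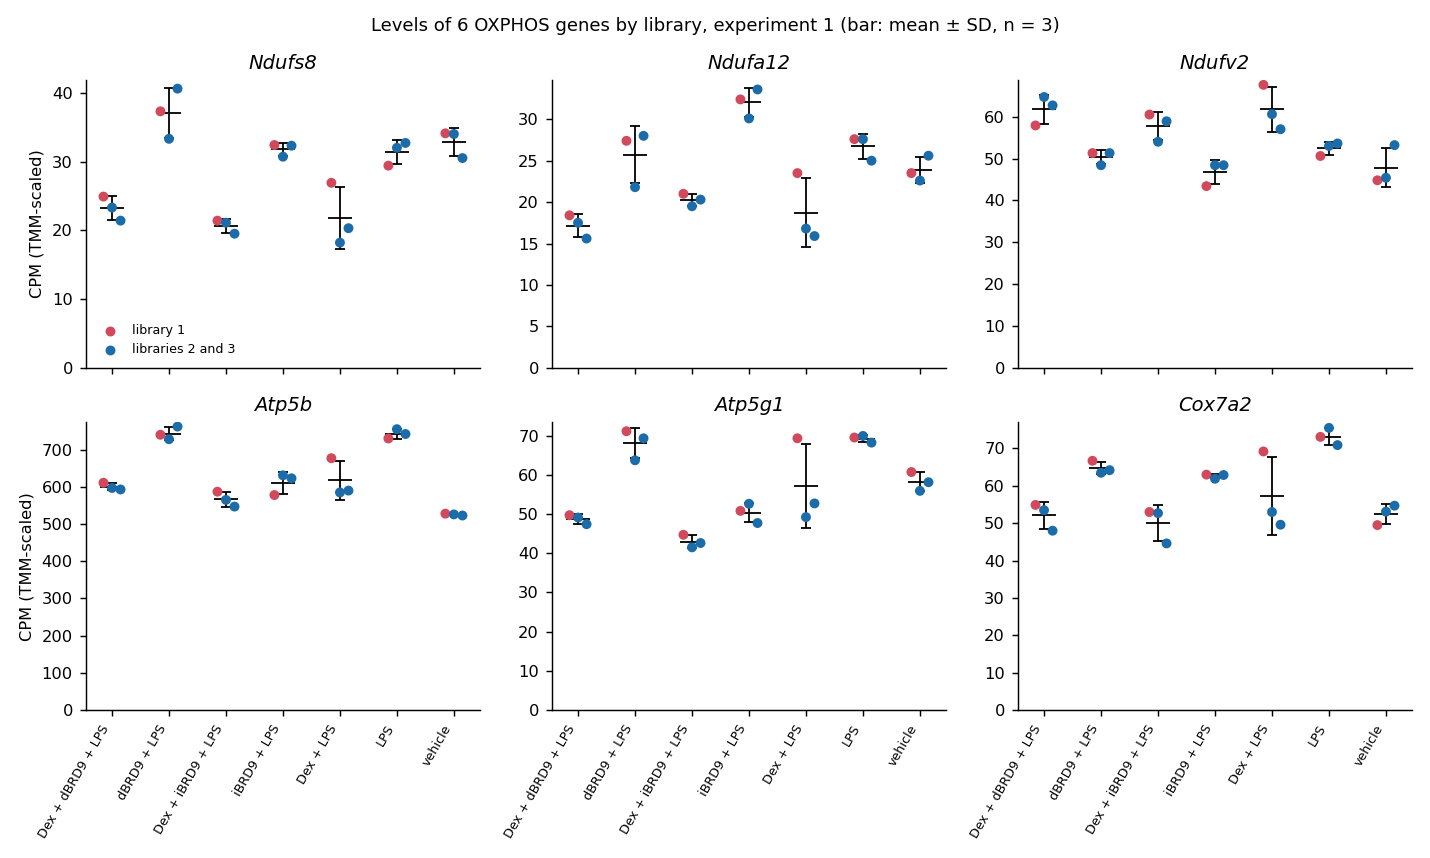
CPM per library of Ndufs8, Ndufa12, Ndufv2, Atp5b, Atp5g1 and Cox7a2 in the 7 groups of experiment 1, with the mean and SD of each group. Library 1 is red and libraries 2 and 3 are blue. Ndufs8 and Ndufa12 lie below their counterparts in all 3 Dex groups, Ndufv2 lies above, and in Dex+LPS library 1 stands above libraries 2 and 3 for all 6 genes.

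In complex IV, Cox7a2 had 69.2, 53.0 and 49.6 CPM in Dex+LPS libraries, against 73.1, 75.5 and 70.9 CPM in LPS libraries (-0.35, adjusted p = 0.0019, and -0.51 without both libraries). Cox7b had 59.0, 44.1 and 48.7 CPM in Dex+LPS libraries, against 66.7, 68.7 and 67.5 CPM in LPS libraries, a log2 fold change of -0.42. No Dex+LPS library reached an LPS value for either gene. The heart isoform Cox7a1 had 1.05, 0.823 and 0.655 CPM in Dex+iBRD9+LPS libraries, against 1.49, 1.7 and 1.62 CPM in iBRD9+LPS libraries (-0.92 ± 0.31, adjusted p = 0.018, and 0.088 without Dex+iBRD9+LPS library 3). It was also lower in Dex+dBRD9+LPS over dBRD9+LPS (-0.9, adjusted p = 0.024), where the groups overlapped and leaving out 1 of 3 libraries (dBRD9+LPS 1 or 3, Dex+dBRD9+LPS 2) gave adjusted p of 0.11 to 0.12. In complex III, Uqcrq had 53.1, 50.9 and 52.0 CPM in Dex+iBRD9+LPS libraries, against 75.7, 73.6 and 69.9 CPM in iBRD9+LPS libraries (-0.49, adjusted p = 2.5e-05).

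Ndufv2 was the single gene higher with Dex in all 3 pairs. It encodes an iron-sulphur subunit beside the NADH-binding site of complex I. It had 67.6, 60.6 and 57.0 CPM in Dex+LPS libraries, against 50.6, 53.0 and 53.6 CPM in LPS libraries (0.24 ± 0.074, adjusted p = 0.009). In the other pairs it had 60.5, 54.0 and 58.9 CPM in Dex+iBRD9+LPS libraries, against 43.4, 48.4 and 48.4 CPM in iBRD9+LPS libraries, and 57.9, 64.7 and 62.7 CPM in Dex+dBRD9+LPS libraries, against 51.3, 48.4 and 51.3 CPM in dBRD9+LPS libraries. Every Dex library lay above every library without Dex in its pair. The log2 fold changes there were 0.31 and 0.29 (adjusted p = 0.0014 and 0.0017), and the values for Dex+LPS and Dex+dBRD9+LPS were 0.17 and 0.34 without both libraries (adjusted p = 0.021 and 1.3e-05). Without LPS library 1 the first was 0.2 (adjusted p = 0.054).

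The other genes called higher in Dex+LPS had smaller fold changes without the libraries that stand apart. Ndufa6 and Ndufb9 had log2 fold changes of 0.21 and 0.24 (adjusted p = 0.049 and 0.041), against 0.05 and 0.07 without both libraries (adjusted p = 0.52 and 0.43), and both calls were also lost without any 1 of the LPS libraries. Ndufv3 had 38.8, 24.0 and 28.1 CPM in Dex+LPS libraries, against 22.9, 22.3 and 23.1 CPM in LPS libraries (0.42, adjusted p = 0.0036, and 0.21 with adjusted p = 0.028 without both). Atp5s had 2.12, 1.76 and 1.74 CPM in Dex+LPS libraries, against 1.45, 0.829 and 1.35 CPM in LPS libraries (0.66, adjusted p = 0.0099). It lost its call without both libraries (0.56, adjusted p = 0.063) and without LPS library 2 (0.41, adjusted p = 0.12). With iBRD9 the same gene was lower with Dex by -0.43 (adjusted p = 0.045, lost without any 1 of 5 of the 6 libraries, adjusted p 0.075 to 0.18), and with dBRD9 higher by 0.59 (adjusted p = 0.013, and 0.069 without dBRD9+LPS library 1).

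With iBRD9, 25 of the 78 genes were called, 11 higher and 14 lower, both a smaller share than the 31.4% and 30.5% of all genes, and with dBRD9 none passed the threshold. The iBRD9+LPS over LPS fold changes had a log2 median of -0.03 (all genes 0.01). With library totals alone the split was 22 higher and 3 lower, against 41.0% and 23.9% of all genes, with the median of all genes at 0.14, and after length correction 22 higher and 21 lower (30.2% and 34.2%). The count of 25 fell to 14 without LPS library 1, 13 without LPS library 2, 13 without iBRD9+LPS library 1 and 16 without iBRD9+LPS library 3. It was 42 without the Dex libraries that stand apart, 18 higher and 24 lower (all genes 34.7% and 33.7%). Neither library belongs to these groups, but all groups share 1 estimate of the spread. ATP synthase had 5 of 17 genes lower and 2 higher, with a median of -0.11 that was 0.03 with library totals alone, and complex I had 6 of 36 higher and 3 lower.

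Atp5g1 had 50.8, 52.6 and 47.7 CPM in iBRD9+LPS libraries, against 69.5, 69.9 and 68.2 CPM in LPS libraries (-0.46 ± 0.084, adjusted p = 6.2e-05). Atp5b had 578, 631 and 623 CPM in iBRD9+LPS libraries, against 730, 755 and 742 CPM in LPS libraries (-0.28, adjusted p = 4.4e-05). Atp5a1 had 497, 502 and 496 CPM in iBRD9+LPS libraries, against 577, 592 and 590 CPM in LPS libraries (-0.23, adjusted p = 4.4e-05). None of these 3 ATP synthase genes overlapped between groups, and Atp5g1 lay below the vehicle values of 60.7, 55.9 and 58.1 CPM. Cox6c and the accessory gene Ndufa9 were lower by -0.26 each.

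Among the genes higher with iBRD9, Atp5s had 2.88, 3.4 and 2.56 CPM in iBRD9+LPS libraries, against 1.45, 0.829 and 1.35 CPM in LPS libraries (1.31 ± 0.19, adjusted p = 3e-06), which is near its level in vehicle cells. Ndufv3 had 29.0, 30.1 and 31.7 CPM in iBRD9+LPS libraries, against 22.9, 22.3 and 23.1 CPM in LPS libraries (0.41, adjusted p = 0.0036). Both had the lowest log2 fold changes among the genes called in LPS over vehicle, a comparison that shares the LPS libraries. Cox7a2l, which helps to join complexes III and IV into supercomplexes, had 193, 189 and 189 CPM in iBRD9+LPS libraries, against 158, 163 and 162 CPM in LPS libraries (0.24, adjusted p = 0.0068). Ndufb10, an accessory subunit of the membrane arm, had 42.7, 43.9 and 45.7 CPM in iBRD9+LPS libraries, against 34.5, 37.5 and 33.8 CPM in LPS libraries (0.32, adjusted p = 0.00083). No iBRD9 library of these 4 genes came down to an LPS value. Cox7a2 (-0.23), Uqcrc1 (-0.16), Ndufa12 (0.26) and Atp5mpl (0.28) had adjusted p of 0.031, 0.038, 0.043 and 0.031, and each lost its call when any 1 of at least 5 of the 6 libraries was left out (adjusted p 0.051 to 0.16).

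dBRD9+LPS had 0 genes higher and 0 lower than LPS, against 6.64% and 9.97% of all genes, with a median log2 fold change of 0.01. At an unadjusted p under 0.05 there were 8, and DESeq2 and limma voom called 0. Without both Dex libraries 8 were higher and 4 lower, against 12.7% and 14.3% of all genes. The lowest fold change was that of Cox6a2 at -1.62 (adjusted p = 0.14) and the highest those of Ndufb8 at 0.29 (adjusted p = 0.11) and Ndufa1 at 0.27 (adjusted p = 0.073).

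On top of Dex, few genes changed with either BRD9 compound, and the direction turned with 1 library. Dex+iBRD9+LPS had 0 genes higher and 5 lower than Dex+LPS, against 16.7% and 18.0% of all genes, with a median of -0.09. Without Dex+LPS library 1, 15 were higher and 2 lower, with a median of 0.08 (all genes 0.01). Without both libraries 18 were higher and 2 lower, against 17.9% and 19.9%, with a median of 0.08. Without Dex+LPS library 2 or 3, 15 and 16 were lower and 0 higher, and without Dex+iBRD9+LPS library 2 or 3 the count was 3 and 2. Dex+dBRD9+LPS had 0 higher and 1 lower than Dex+LPS, against 6.51% and 9.28% of all genes. Without both libraries it had 8 higher and 0 lower, against 7.19% and 10.0%, and the median was 0.06 in place of -0.06. It had 14 higher and 1 lower without Dex+LPS library 1 (median 0.11, all genes 0.01), and 6 and 4 lower without library 2 or 3. Across all genes, the correlation of the fold change with transcript length was 0.306 and 0.298 in these comparisons, against -0.000385 and -0.00997 without both libraries. After length correction it was still 0.123 in each.

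Atp5g1 and Atp5a1 were lower in Dex+iBRD9+LPS over Dex+LPS with and without the libraries that stand apart. Atp5g1 had 44.7, 41.5 and 42.6 CPM in Dex+iBRD9+LPS libraries, against 69.3, 49.2 and 52.7 CPM in Dex+LPS libraries (-0.41, adjusted p = 0.00069, and -0.25 with adjusted p = 0.00065 without both). Atp5a1 had 504, 485 and 474 CPM in Dex+iBRD9+LPS libraries, against 585, 537 and 527 CPM in Dex+LPS libraries (-0.17, adjusted p = 0.0027, and -0.13 with adjusted p = 0.0039). All Dex+iBRD9+LPS values of both genes lay below all Dex+LPS values. Ndufs7 at -0.28, Ndufa9 at -0.23 and Ndufc2 at -0.22 lost their calls without both libraries (adjusted p = 0.18, 0.08 and 0.28), and likewise without Dex+LPS library 1 (adjusted p 0.12 to 0.31) or Dex+iBRD9+LPS library 3 (0.08 to 0.11). Ndufs7 and Ndufc2 also lost them without library 1 or 2 of Dex+iBRD9+LPS (adjusted p 0.058 to 0.11). Uqcrfs1 had 93.0, 94.1 and 92.0 CPM in Dex+dBRD9+LPS libraries, against 118, 101 and 102 CPM in Dex+LPS libraries (-0.2 ± 0.052, adjusted p = 0.0091). Its call was lost without both libraries (-0.13, adjusted p = 0.057).

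Whether the BRD9 compounds changed the response to Dex was tested as a difference of differences. For iBRD9, 0 genes were higher and 5 lower, against 17.3% and 16.0% of all genes, with a median of -0.05. Without both libraries that stand apart 15 were higher and 2 lower, against 20.4% and 19.4%, with a median of 0.09. The count was 13 without Dex+LPS library 1 (11 higher), 8 and 9 without Dex+LPS library 2 and 3, and 2 or 3 without any other library of the 4 groups. Atp5s (-1.09 ± 0.27, adjusted p = 0.0033) and Cox7a2l (-0.35 ± 0.1, adjusted p = 0.012) had an interaction with and without both libraries, at -0.99 (adjusted p = 0.013) and -0.21 (adjusted p = 0.0022) without them. For dBRD9, 0 genes were higher and 0 lower, against 1.82% and 1.57% of all genes, and the median was -0.07. At an unadjusted p under 0.05 there were 0, and DESeq2 and limma voom called 0. Leaving out Dex+LPS library 1 gave 2, both higher, and leaving out both libraries that stand apart 0, against 3.6% and 3.79% of all genes.

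Experiment 2 asked the same of cells given interferon-γ with LPS. IFNγ+LPS had 5 genes higher and 37 lower than vehicle, against 32.8% and 35.6% of all 13313 genes tested, with a median log2 fold change of -0.33 (all genes -0.11). Complex I accounted for most of them, with 25 of 36 genes lower and 0 higher (median -0.49). Complex II had 2 of 4 lower (-0.24), complex III 2 of 8 higher and 1 lower (-0.24), complex IV 1 of 13 lower (-0.02), and ATP synthase 3 of 17 higher and 8 lower (-0.34). The vehicle libraries differ in length dependence, and each decides much of the count and of the median. Without vehicle library 1 the median of the 78 genes was -0.07, the same as the -0.07 of all genes, and that of complex I was -0.2. Without vehicle library 2 the median was -0.55, against -0.09 over all genes, and that of complex I was -0.72. The lower level of the 78 genes relative to all genes thus rested on vehicle library 1. Without IFNγ+LPS library 2 the count was 22. Length correction gave 11 higher and 23 lower, against 35.9% and 33.1% of all genes, with complex I at 1 higher and 16 lower. With library totals alone 0 were higher and 76 lower, against 19.8% and 58.7%, with the median of all genes at -0.76.

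Among complex I genes, Ndufb10 had 29.7 and 29.9 CPM in IFNγ+LPS libraries, against 70.2 and 50.7 CPM in vehicle libraries (-1.02 ± 0.15, n = 2 each, adjusted p = 2.5e-05). The accessory gene Ndufa6 had 24.6 and 20.3 CPM in IFNγ+LPS libraries, against 54.5 and 37.5 CPM in vehicle libraries (-1.03, adjusted p = 6.6e-05). In complex II, Sdhb had 51.1 and 49.7 CPM in IFNγ+LPS libraries, against 119 and 85.0 CPM in vehicle libraries (-1.01, adjusted p = 9.9e-06). For these 3 genes the lower vehicle library still lay well above both stimulated libraries. Ndufv1, the NADH-binding subunit, was lower by -0.54 (adjusted p = 0.0033), and its call was lost after length correction. Ndufb8 was lower by -0.69 (adjusted p = 0.0031, and 0.072 without vehicle library 1), and Atp5s had 1.15 ± 0.253 CPM in IFNγ+LPS libraries and 4.12 ± 0.375 in vehicle libraries (-1.84, adjusted p = 0.00099).

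Both subunits of the catalytic head of ATP synthase were higher. Atp5b had 581 and 579 CPM in IFNγ+LPS libraries, against 430 and 388 CPM in vehicle libraries (0.50 ± 0.1, adjusted p = 0.00033). Atp5a1 had 494 and 510 CPM in IFNγ+LPS libraries, against 401 and 362 CPM in vehicle libraries (0.40, adjusted p = 0.0026). Neither overlapped. With library totals alone these values were -0.14 and -0.25. Atp5f1, subunit b of the stalk, Uqcrfs1 and the core protein Uqcrc2 rose by 0.34, 0.33 and 0.26 (adjusted p = 0.029, 0.027 and 0.048), and each of these 3 calls was lost without either IFNγ+LPS library (adjusted p 0.073 to 0.17) and without vehicle library 2 (Atp5f1 0.22, Uqcrfs1 0.27) or 1 (Uqcrc2 0.14). In complex IV, Cox4i1 had 286 and 268 CPM in IFNγ+LPS libraries, against 405 and 263 CPM in vehicle libraries, which overlap (-0.27, adjusted p = 0.14), and Cox8a had a log2 fold change of 0.06.

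**Figure D5:**
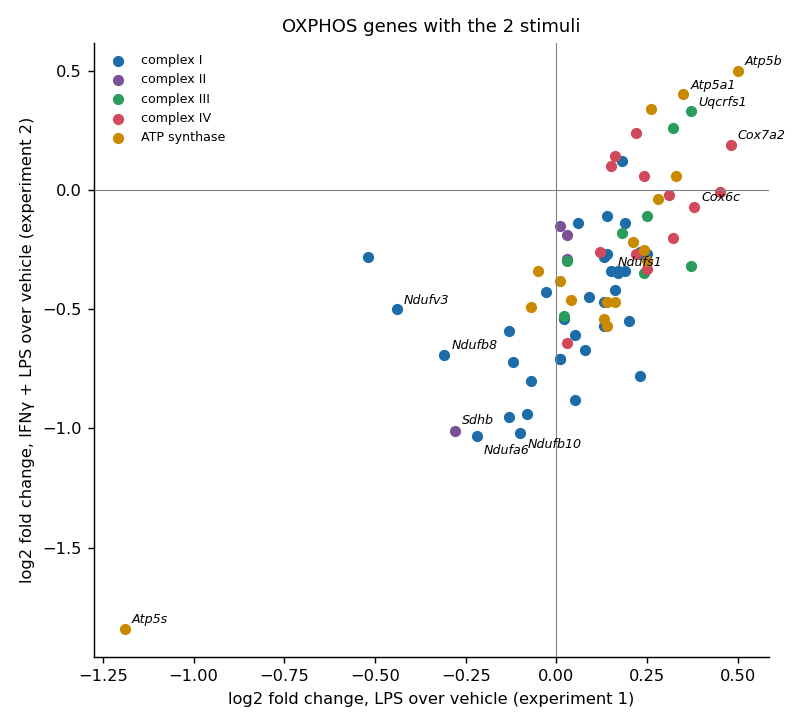
Each point is 1 of the 78 genes, coloured by complex. The x axis is the log2 fold change of LPS over vehicle in experiment 1 and the y axis that of IFNγ+LPS over vehicle in experiment 2. Atp5b lies at 0.50 on both axes, Sdhb at -0.28 and -1.01, and most complex I genes lie below 0 on the y axis.

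The experiments share no libraries but were normalized apart and were not tested against each other. All 5 genes higher with IFNγ+LPS (Atp5a1, Atp5b, Atp5f1, Uqcrc2 and Uqcrfs1) were among the 25 higher with LPS, 100% and 20.0% of each list. All 5 lower with LPS (Atp5s, Ndufa6, Ndufb8, Ndufv3 and Sdhb) were among the 37 lower with IFNγ+LPS, 100% and 13.5%. Ndufa10 and Ndufs1 were among the genes higher with LPS and lower with IFNγ+LPS.

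Dex on IFNγ+LPS raised 1 gene and lowered 0, against 10.7% and 9.21% of all genes, with a median of 0.0. That gene was Ndufv2, which had 82.4 and 105 CPM in Dex+IFNγ+LPS libraries, against 47.8 and 46.3 CPM in IFNγ+LPS libraries (0.99 ± 0.16, adjusted p = 0.00032). In the pair with the degrader it had 89.8 and 91.7 CPM in Dex+dBRD9+IFNγ+LPS libraries, against 46.3 and 39.8 CPM in dBRD9+IFNγ+LPS libraries (1.08 ± 0.16, adjusted p = 0.00015). The libraries with and without Dex are far apart in both pairs. Ndufs8, lower with Dex in experiment 1, had 15.7 and 18.6 CPM in Dex+IFNγ+LPS libraries, against 19.2 and 18.8 CPM in IFNγ+LPS libraries, and was not called. Sdhc had 71.4 and 81.4 CPM in Dex+IFNγ+LPS libraries, against 94.1 and 85.3 CPM in IFNγ+LPS libraries, also without a call.

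Dex+dBRD9+IFNγ+LPS had 15 genes higher and 0 lower than dBRD9+IFNγ+LPS, against 14.0% and 14.4% of all genes, with a median of 0.33 (all genes 0.05) and 76 of 78 log2 fold changes above 0. This is the opposite direction to the Dex pairs of experiment 1. The 15 calls were of complex I (7) and 2 each of the other complexes. With any 1 of the 4 libraries left out, 1 to 3 were called: 3 and 1 without dBRD9+IFNγ+LPS library 1 and 2, and 1 and 2 without Dex+dBRD9+IFNγ+LPS library 1 and 2. Length correction gave 11 higher and 0 lower, against 13.3% and 17.7%, and library totals alone 39 and 0, against 19.6% and 11.4%. Across all genes the fold change had a correlation of -0.296 with transcript length, and of -0.149 after length correction. That correction used summed exon length and left part of the dependence. In this comparison 68 of the 78 genes lay wholly above, with no overlap between the groups of 2 libraries. The share of all genes that did so is not given here, so this count is not read as a result about the 78 genes. Apart from Ndufv2, Uqcrfs1 had 116 and 119 CPM in Dex+dBRD9+IFNγ+LPS libraries, against 85.8 and 86.5 CPM in dBRD9+IFNγ+LPS libraries (0.45, adjusted p = 0.013). Cox7a2l had 189 and 187 CPM in Dex+dBRD9+IFNγ+LPS libraries, against 138 and 124 CPM in dBRD9+IFNγ+LPS libraries (0.52, adjusted p = 0.012). Neither overlapped, but Uqcrfs1 had adjusted p of 0.061 to 0.089 with any 1 library left out, and Cox7a2l of 0.064 to 0.12 without dBRD9+IFNγ+LPS 2 or either Dex library.

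Against Dex+IFNγ+LPS, Dex+dBRD9+IFNγ+LPS had 0 genes called in either direction, against 0.233% and 1.16% of all genes. The median was 0.27 with 75 of 78 above 0, 15 had an unadjusted p under 0.05, DESeq2 called 1 and limma voom 0, and 1 was called without Dex+IFNγ+LPS library 2. The correlation of this fold change with transcript length across all genes was -0.484, and -0.262 after length correction. Of the 78 genes, 53 lay wholly above, with no overlap between the groups of 2 libraries. This count, too, stands without the share of all genes and is not read as a result about the 78 genes. dBRD9+IFNγ+LPS over IFNγ+LPS had 0 calls, against 0.819% and 1.01% of all genes, a median of -0.07 and 0 genes at an unadjusted p under 0.05, with 0 called by DESeq2 and limma voom.

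Genes that work with the 78 give the setting. Their lists were fixed with earlier results of these data known. Their counts stand against 36.1% higher and 39.3% lower of all genes with LPS, 32.8% and 35.6% with IFNγ+LPS, 27.9% and 27.5% with Dex+LPS over LPS, and 31.4% and 30.5% with iBRD9+LPS over LPS. Of the subunits encoded by mitochondrial DNA, 10 of 12 rose with LPS and 0 fell (median 0.42), and with library totals alone 0 rose and 4 fell (-0.09). With IFNγ+LPS 6 of 13 rose and 0 fell (0.42), and with library totals alone 1 rose and 5 fell. With Dex+LPS over LPS 0 rose and 8 fell (median -0.45; 7 with library totals alone), and with iBRD9+LPS over LPS 0 rose and 10 fell (-0.38; 6 with library totals alone). The complex I subunit mt-Nd1 had 997 ± 11.7 CPM in Dex+LPS libraries and 1680 ± 34.6 in LPS libraries (-0.75, adjusted p = 2.7e-12). Cytosolic ribosomal protein genes, also short, had 57 of 82 higher and 0 lower with LPS, a split that turned to 2 higher and 77 lower with library totals alone. With Dex+LPS over LPS 2 were higher and 49 lower, which became 0 and 75 without both libraries and 3 and 29 with library totals alone. In IFNγ+LPS 0 of 81 rose and 38 fell (median -0.34). These genes took 5.48% and 4.03% of the counts in vehicle libraries 1 and 2 of experiment 2, against 2.5% and 2.33% in IFNγ+LPS libraries. The vehicle libraries, which differ in length dependence, serve all list counts with IFNγ+LPS. Mitochondrial ribosomal protein genes had 23 of 76 higher and 21 lower with LPS (5 and 59 with library totals alone), and 4 of 77 higher and 45 lower with IFNγ+LPS.

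Of 45 assembly factors, which build the complexes, 10 were higher and 17 lower with LPS (median -0.12), the share of lower ones near the 39.3% of all genes, and with IFNγ+LPS 5 of 44 were higher and 24 lower (-0.53). These were 5 and 34 with LPS and 3 and 37 with IFNγ+LPS when scaled by library totals alone. Uqcc3, a factor for complex III, was lower by -1.02 with LPS and -2.46 with IFNγ+LPS. Tmem126b, a factor for complex I, was lower by -1.75 with LPS and -1.99 with IFNγ+LPS. Others of the list were higher by as much: Sco1, a copper carrier for complex IV, had 41.1 ± 3.08 CPM in IFNγ+LPS libraries and 7.29 ± 0.766 in vehicle libraries (2.49), and rose by 0.81 with LPS. Coa5, also a factor for complex IV, had 262 ± 15.8 CPM in IFNγ+LPS libraries and 80.3 ± 6.35 in vehicle libraries (1.7), and rose by 1.15 with LPS. The copper chaperone Cox17 rose by 1.33 and 0.61 with these stimuli. Of the electron carriers, enzymes of ubiquinone synthesis and carrier proteins of the inner and outer membranes, Cycs, which encodes cytochrome c, had 95.0 ± 2.72 CPM in LPS libraries and 46.2 ± 0.854 in vehicle libraries, a log2 fold change of 1.04. Of the 20 genes of that list, 8 fell and 0 rose in Dex+LPS over LPS, 14 fell without both libraries, and 7 fell and 2 rose with library totals alone. AA467197 encodes a paralogue of Ndufa4 that is known to be induced in inflamed macrophages. It had 41.0 ± 2.47 CPM in LPS libraries and 0.269 ± 0.0192 in vehicle libraries (7.22 ± 0.22, adjusted p = 1.8e-18), and 233 ± 17.5 CPM in IFNγ+LPS libraries and 1.54 ± 0.177 in vehicle libraries of experiment 2 (7.25). Dex+LPS libraries held 7.66 ± 2.39 CPM of it (-2.4 over LPS) and iBRD9+LPS libraries 16.0 ± 1.88 CPM (-1.36 over LPS). Ndufa4 itself rose by 0.23 with LPS and was lower by -0.18 with Dex+LPS over LPS (adjusted p = 0.037, and -0.3 without both libraries), with adjusted p of 0.066 to 0.22 without LPS library 1 or 2 or Dex+LPS library 2 or 3.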

How the data were processed

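RNA was sequenced from mouse macrophages of bone marrow in 31 libraries, 21 of experiment 1 and 10 of experiment 2. The deposited values are raw counts of reads per Ensembl gene, made by the authors, with 1 column per library. Per the submitters' processing notes, the build was mm10 and fastp, STAR and DESeq2 were used, without versions or roles. The counting step, annotation release and strand setting are not stated by any source at hand, so genes that overlap another gene may hold some of its reads. Every deposited column was used. Symbols, positions and lengths came from GENCODE M21 (mm10), with symbols for 34490 and 54495 identifiers.

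Each experiment was fitted alone with edgeR 4.0.16 in R 4.3.3 (quasi-likelihood F test, all groups in 1 fit, filterByExpr with a minimum count of 10 and total of 15, TMM scaling). Benjamini-Hochberg adjustment ran over 12662 and 13313 genes, and a gene was called at adjusted p under 0.05. The common coefficient of variation was 6.79% and 10.6%. CPM are scaled by TMM factors. Errors beside fold changes are standard errors and those beside levels are SDs. Length checks used genes with a mean of 10 CPM or more and the coding transcript length. The length correction used summed exon length, so some dependence on coding transcript length remained.

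Alternatives were DESeq2 1.42.0 size factors or its Wald test, limma 3.58.1 voom, library totals alone, no low-count filter, the replicate number as a block, a length correction (loess offsets, span 0.3), fits on the groups of a contrast only, and leaving out libraries. Scripts were tested on simulated data. Genes named in the text are fixed subunits of each complex plus, per comparison, up to 6 genes with the highest and 6 with the lowest fold changes among those called, and up to 3 per other list at 10 CPM or more. Other genes were chosen for description after their values were seen. The 78 genes and all lists were chosen with earlier results of these data known. Comparisons that share control libraries are given side by side. Promoter sequences are from RefSeq (GRCm38.p6), and 15 of the 78 genes had no entry.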

Additional observations from a re-analysis of the deposited data

Results flagged for a closer look

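The response of 5 genes to Dex differed between cells with and without iBRD9, by the interaction term of edgeR's quasi-likelihood test. The difference (Dex+iBRD9+LPS over Dex+LPS, minus iBRD9+LPS over LPS) was -1.09 for Atp5s (adjusted p = 0.0033), -0.42 for Ndufv3 (adjusted p = 0.047), -0.35 for Cox7a2l (adjusted p = 0.012), -0.33 for Ndufc2 (adjusted p = 0.035) and -0.32 for Uqcrq (adjusted p = 0.037). Without library 1 of Dex+LPS and of Dex+dBRD9+LPS the values were -0.99, -0.21, -0.21, -0.21 and -0.15, with adjusted p of 0.013, 0.12, 0.0022, 0.085 and 0.061. Ndufv3 also lost its call without any 1 of the 12 libraries of the 4 groups apart from Dex+LPS library 2 and 3, and Ndufc2 and Uqcrq without most of them.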

How the results depend on the processing

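Counts below are of the 78 genes called in either direction and describe the settings, not the 78 genes against other genes. These counts stand without the share of all genes called under the same setting. Without library 1 of Dex+LPS and of Dex+dBRD9+LPS they were 49 for LPS over vehicle, 53 for Dex+LPS over LPS, 42 for iBRD9+LPS and 12 for dBRD9+LPS over LPS, 20 for Dex+iBRD9+LPS and 8 for Dex+dBRD9+LPS over Dex+LPS, 47 for Dex+iBRD9+LPS over iBRD9+LPS, 52 for Dex+dBRD9+LPS over dBRD9+LPS, and 17 for the interaction with iBRD9. Length correction on the summed exon length gave 52 for LPS over vehicle, 35 for Dex+LPS over LPS, 43 for iBRD9+LPS and 6 for dBRD9+LPS over LPS, 16 for Dex+iBRD9+LPS and 9 for Dex+dBRD9+LPS over Dex+LPS, 13 for the interaction with iBRD9, 4 for Dex+IFNγ+LPS over IFNγ+LPS and 2 for Dex+dBRD9+IFNγ+LPS over Dex+IFNγ+LPS. With coding transcript length, a choice made after seeing the data, 46, 41, 9, 14, 9, 13, 6 and 2 were called, in the same order without Dex+LPS over LPS. Fits on the groups of a contrast alone gave 51 for LPS over vehicle, 9 for Dex+LPS over LPS, 44 for iBRD9+LPS and 13 for dBRD9+LPS over LPS, 1 for Dex+iBRD9+LPS and 0 for Dex+dBRD9+LPS over Dex+LPS, 48 for Dex+iBRD9+LPS over iBRD9+LPS, 2 for the interaction with iBRD9, 26 for IFNγ+LPS over vehicle, and 3 and 41 for Dex+dBRD9+IFNγ+LPS over Dex+IFNγ+LPS and over dBRD9+IFNγ+LPS. The last set of fits used fewer samples, and the cause of these moves was not tested.

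Library totals alone gave 71 for LPS over vehicle, 5 for dBRD9+LPS over LPS, 1 and 0 for Dex+iBRD9+LPS and Dex+dBRD9+LPS over Dex+LPS, 76 for IFNγ+LPS over vehicle and 39 for Dex+dBRD9+IFNγ+LPS over dBRD9+IFNγ+LPS. The same scaling reversed genes called higher with LPS: Atp5a1 -0.16, Uqcrfs1 -0.15, Uqcrh -0.14, Cox6c -0.13, Cox7a2 -0.03, Atp5b -0.01, Ndufs1 -0.37, Ndufa4 -0.28, Uqcrc1 -0.33, Cox4i1 -0.29, Cox8a -0.28 and Atp5g1 -0.26. For IFNγ+LPS it reversed Uqcrc2 -0.39, Uqcrfs1 -0.32, Atp5f1 -0.3, Atp5a1 -0.25 and Atp5b -0.14. DESeq2 size factors gave 14 and 3 for Dex+iBRD9+LPS and Dex+dBRD9+LPS over Dex+LPS and 7 for Dex+dBRD9+IFNγ+LPS over dBRD9+IFNγ+LPS. The DESeq2 test gave 14 and 5, and 6 for that last comparison, with 2 for Dex+IFNγ+LPS over IFNγ+LPS and 1 for Dex+dBRD9+IFNγ+LPS over Dex+IFNγ+LPS. No low-count filter gave 6 for dBRD9+LPS over LPS, 3 for Dex+dBRD9+LPS over Dex+LPS, and 3 and 23 for Dex+dBRD9+IFNγ+LPS over Dex+IFNγ+LPS and over dBRD9+IFNγ+LPS. Voom moved no count by over 1.5 times.

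Leaving out 1 library gave ranges of 24 to 28 for LPS over vehicle, 17 to 52 for Dex+LPS, 13 to 22 for iBRD9+LPS and 0 to 0 for dBRD9+LPS over LPS, 2 to 17 for Dex+iBRD9+LPS and 1 to 15 for Dex+dBRD9+LPS over Dex+LPS, 16 to 26 for Dex+iBRD9+LPS over iBRD9+LPS, 21 to 35 for Dex+dBRD9+LPS over dBRD9+LPS, and 2 to 13 and 0 to 2 for the interactions with iBRD9 and dBRD9. In experiment 2 they were 22 to 62 for IFNγ+LPS over vehicle, 1 to 1 for Dex+IFNγ+LPS and 0 to 0 for dBRD9+IFNγ+LPS over IFNγ+LPS, and 0 to 1 and 1 to 3 for Dex+dBRD9+IFNγ+LPS over Dex+IFNγ+LPS and over dBRD9+IFNγ+LPS. Among values of named genes under alternatives that keep every replicate or drop the pair that stands apart, 1039 kept direction and call, 116 lost the call and 17 reversed. With 2 libraries per group in experiment 2, precision is limited by their number.

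The main fits did not pair the samples by replicate number. Deviations of libraries with the same number had correlations of -0.218 to 0.736 over 63 pairs in experiment 1 (median 0.00932, against -0.00407 for different numbers). There 12 of 21 libraries were closest to their own number. In experiment 2 the range was -0.712 to 0.26 over 20 pairs, with 6 of 10. Whether the numbers pair the samples was not tested. With the replicate block the counts were 31, 25, 28 and 0 for LPS over vehicle and Dex+LPS, iBRD9+LPS and dBRD9+LPS over LPS, 6 and 2 for Dex+iBRD9+LPS and Dex+dBRD9+LPS over Dex+LPS, 30 and 34 for the other Dex pairs, 5 and 0 for the interactions, and 39, 1, 0, 0 and 11 in experiment 2. Length correction with the replicate block gave 52, 35, 44, 7, 17, 11 and 13 for the first 6 of these and the interaction with iBRD9, and in experiment 2 it gave 3 for Dex+IFNγ+LPS over IFNγ+LPS and 1 and 9 for Dex+dBRD9+IFNγ+LPS over Dex+IFNγ+LPS and over dBRD9+IFNγ+LPS.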
